A study of Mus musculus with 18 samples.

Results

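Lysosomal genes were examined across mouse embryonic fibroblasts (MEFs) whose labels give Ago2+/+ or Ago2-/- as genotype and DMSO, tunicamycin or thapsigargin as treatment. The members were 36 genes chosen by name, namely 11 cathepsins and 25 other genes, each matched to its row among the 51499 loci of the deposited table. The 25 others were lysosomal hydrolases and their cofactors, proteins of the lysosomal membrane and lumen, a subunit of the proton pump and the transcription factor Tfeb. The series holds 18 libraries of total RNA in 6 groups of 3. Ago2 encodes an Argonaute protein that binds small RNAs and can cleave their targets, and the study asked how its loss alters the transcript response to stress in the endoplasmic reticulum (ER). Tunicamycin blocks the first step of N-glycan assembly, thapsigargin (500 nM in the labels) blocks the calcium pump of the ER membrane, and DMSO is the solvent control. The study's sequencing methods describe the control cells as left untreated, where the labels give DMSO. Its cell line methods and its legend for these sequencing results name DMSO too. Titles of the libraries labelled Ago2+/+ begin with DCR1 instead of AGO2, a prefix that no source used here explains. The replicates are described as biological, but not whether each genotype was 1 cell line.

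Lysosomes are acidic organelles that break down proteins, glycans and lipids. Most of their soluble hydrolases are made as glycoproteins in the ER, receive a mannose 6-phosphate tag in the Golgi and are carried to the lysosome by receptors for that tag. Cathepsins are lysosomal proteases, most with a cysteine and a few with an aspartate or serine in the active site. Tfeb can switch on many lysosomal genes through the promoter element CACGTG, and several members are known for inherited storage diseases when lost.

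The table gave 1 pooled expression value per group, in FPKM (fragments mapped to a transcript, scaled by its length and by the number of fragments in the library), with no value per library. No error over replicates could therefore be attached to any value, no neighbouring levels could be separated by a test, and the depth behind each value is unknown. Differences are given as ratios of FPKM after adding 0.1 to both values, with 2-fold as the cutoff, and counts are set beside the share of all loci past the same cutoff. That share was taken over the 11929 loci with a mean over the 6 groups of at least 1 FPKM. In bulk RNA, fewer cells of a type and less RNA per cell cannot be told apart.

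The genotype labels were checked first. Under DMSO, tunicamycin and thapsigargin, the level of Ago2 itself was 22.1, 5.75 and 17.0 FPKM where the label reads Ago2+/+, and 5.61, 15.5 and 20.7 FPKM where it reads Ago2-/-. The groups low in Ago2 were thus a tunicamycin group labelled Ago2+/+ and a DMSO group labelled Ago2-/-, so the level of this gene went against the labels. Genes that differ between the sexes also cut across them. The Y-linked Ddx3y, Eif2s3y, Kdm5d and Uty were at 6.03 to 32.3 FPKM in Ago2+/+ thapsigargin and Ago2-/- tunicamycin and were listed at 0 in the other 4 groups. The locus of Xist, which silences an X chromosome in female cells, was at 46.6 FPKM in Ago2+/+ DMSO and 33.5 FPKM in Ago2-/- thapsigargin, and at no more than 0.0574 FPKM elsewhere. Each comparison of a drug with DMSO, and each of the genotypes, therefore sets side by side groups that differ in these genes, and drug or genotype cannot be told apart from that difference here. A total of 4 libraries also carried genotype labels that disagree with each other. By title they were replicate 2 of each Ago2+/+ group and replicate 3 of Ago2-/- DMSO. Every comparison by treatment or genotype therefore includes an affected group. These libraries were kept under their titles, and the pooled table does not allow them to be left out. Over all 11929 loci, 3 pairs of groups lay close together across the labels, with Spearman coefficients of 0.977 to 0.985 where the other 12 pairs had 0.876 to 0.906. These close pairs were Ago2+/+ tunicamycin with Ago2-/- DMSO, Ago2+/+ thapsigargin with Ago2-/- tunicamycin, and Ago2+/+ DMSO with Ago2-/- thapsigargin. Group names below are those of the labels only. The 10 macrophage and leukocyte markers summed to 2.76 to 16.8 FPKM. Nearly all of this was Cd14, at 14.4 FPKM in Ago2+/+ tunicamycin, 16.7 FPKM in Ago2-/- DMSO and 2.40 to 5.60 FPKM elsewhere. Adgre1 and Tyrobp were listed at 0 in all 6 groups. Each other marker of this list stayed at or under 0.457 FPKM, the level of Csf1r in Ago2-/- thapsigargin. The 10 fibroblast markers summed to 3000 to 3956 FPKM, with Vim at 952 to 2634 FPKM in every group and Thy1 listed at 0 throughout. All 8 fibroblast markers that passed the filter of 1 FPKM spanned at least 2-fold over the groups.

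The 36 members together made up 0.280% to 0.362% of the summed FPKM of all loci, with the highest share in Ago2+/+ DMSO and the lowest in Ago2+/+ tunicamycin. Cathepsins held 33.6%, 41.8% and 29.0% of the members' sum in Ago2+/+ cells under DMSO, tunicamycin and thapsigargin, and 40.6%, 28.0% and 36.4% in Ago2-/- cells. The share was thus lowest in Ago2+/+ thapsigargin and Ago2-/- tunicamycin. FPKM is scaled by transcript length, so levels of different genes may be set side by side. On the mean over the 6 groups, the most abundant members were Ctsl, Cd63 and Lamp1, and the least abundant was Ctss. Of the 36 members, 33 passed the mean of 1 FPKM, comprising 8 of the 11 cathepsins and each of the 25 other members. Ctsk, Ctso and Ctss fell below it. Ctsc, Ctsf and Ctsh passed through the groups in which they were high, so that counts over the 33 are descriptions only.

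**Figure D1:**
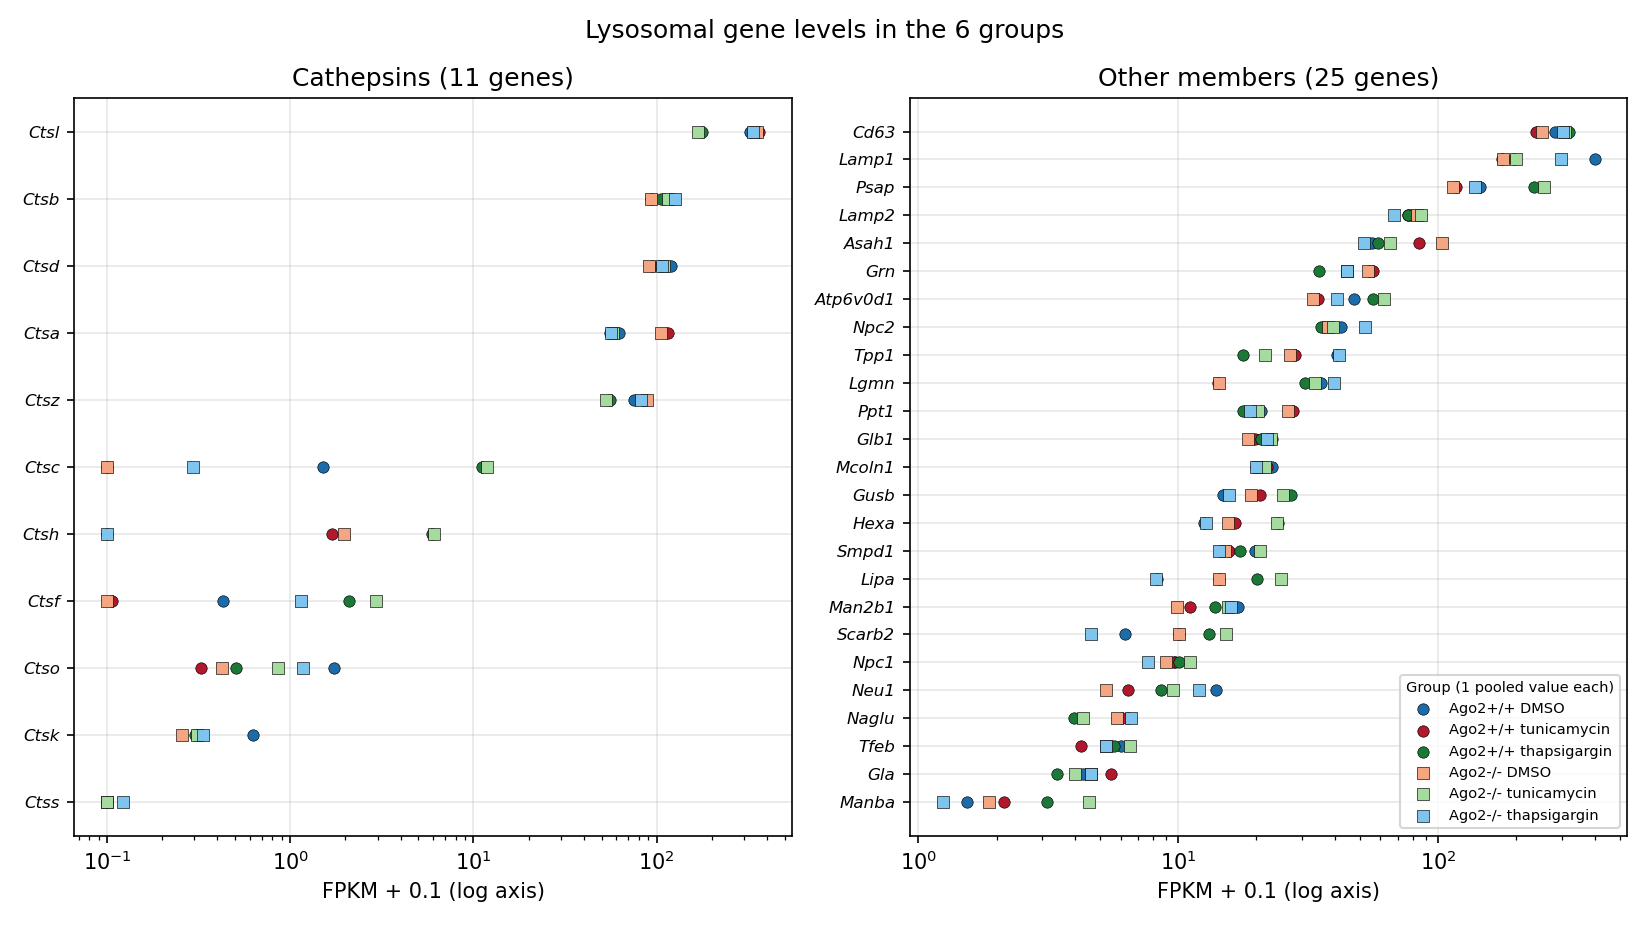
FPKM plus 0.1 (log axis) of each cathepsin (left) and each other member (right) in the 6 groups, 1 pooled value per point, with circles for groups labelled Ago2+/+, squares for Ago2-/- and 1 hue for each close pair. Ctsl, Ctsb, Ctsd, Ctsa and Ctsz lie between 52.8 and 363 FPKM, whereas Ctsc, Ctsh and Ctsf reach 0 in some groups, where points at 0.1 stand for values listed at 0 and may overlap.

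Ctsl, which encodes cathepsin L, a cysteine endopeptidase, was the most abundant cathepsin and lies at chr13:64359337-64370890 (GRCm38). It stood at 322, 363 and 176 FPKM in Ago2+/+ cells under DMSO, tunicamycin and thapsigargin, and at 351, 167 and 336 FPKM in Ago2-/- cells. The values fell into a high set of 4 groups and a low set of 2, Ago2+/+ thapsigargin and Ago2-/- tunicamycin, and the highest group was 2.17-fold above the lowest. Ctsz, a carboxypeptidase, had its lowest values in the same 2 groups, at 55.3 and 52.8 FPKM, and ranged up to 88.1 FPKM. Exons of Ctsl and Ctsz overlap other annotated genes, Gm49230 and Gm47123 for the former and Nelfcd for the latter. Whether the counting used strand is not stated, so these values are uncertain to that extent. Gm49230 shares exons with Ctsl on the same strand, so use of strand would not settle that overlap.

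Ctsa, at chr2:164830732-164857711, encodes the serine carboxypeptidase that protects beta-galactosidase and neuraminidase. It stood at 61.9, 115 and 55.2 FPKM in Ago2+/+ cells under DMSO, tunicamycin and thapsigargin, and at 105, 57.7 and 56.0 FPKM in Ago2-/- cells. Here Ago2+/+ tunicamycin and Ago2-/- DMSO were high and the other 4 groups lay between 55.2 and 61.9 FPKM. Its ratio of highest to lowest was 2.08, and its exons overlap Neurl2 and Pltp on the other strand.

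The remaining abundant cathepsins varied little. Ctsb, a cysteine protease, ranged from 93.1 to 126 FPKM, and its exons overlap Fdft1. Ctsd, the main aspartic protease of the lysosome, ranged from 90.7 to 119 FPKM at a locus whose single value also covers Ifitm10 and AC034099.1. Exons of Ctsd also overlap Gm49369 on the same strand, an overlap that use of strand would not settle. Ctsb thus spanned 1.35-fold and Ctsd 1.31-fold between groups.

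The cathepsins with the widest ranges were those at low levels. Ctsc (chr7:88278085-88310888) encodes dipeptidyl peptidase I, which activates serine proteases of immune cell granules. It stood at 1.41, 0 and 11.1 FPKM in Ago2+/+ cells under DMSO, tunicamycin and thapsigargin, and at 0, 11.7 and 0.196 FPKM in Ago2-/- cells. Ago2-/- DMSO and Ago2+/+ tunicamycin were thus the groups listed at 0, and Ctsc had its highest values in Ago2+/+ thapsigargin and Ago2-/- tunicamycin.

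Ctsh (chr9:90054152-90076089), an aminopeptidase, was listed at 0 in a different pair. Its levels were 0, 1.59 and 5.84 FPKM in Ago2+/+ cells under DMSO, tunicamycin and thapsigargin, and 1.87, 6 and 0 FPKM in Ago2-/- cells. The 2 groups listed at 0 were Ago2+/+ DMSO and Ago2-/- thapsigargin.

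Ctsf (chr19:4855129-4860912), another cysteine protease, stood at 0.33, 0.00653 and 2 FPKM in Ago2+/+ cells under DMSO, tunicamycin and thapsigargin, and at 0, 2.82 and 1.05 FPKM in Ago2-/- cells. Ctsc, Ctsh and Ctsf had in common that Ago2+/+ thapsigargin and Ago2-/- tunicamycin were their 2 highest groups. No fold is given against a group listed at 0.

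Of the 3 cathepsins under the filter, Ctso (chr3:81932601-81956725) stood at 1.64, 0.226 and 0.409 FPKM in Ago2+/+ cells under DMSO, tunicamycin and thapsigargin, and at 0.324, 0.754 and 1.08 FPKM in Ago2-/- cells. Ctsk, the collagen-cleaving protease of osteoclasts, lies at chr3:95499256-95509362 and had its highest value, 0.53 FPKM, in Ago2+/+ DMSO. In the other groups Ctsk was at 0.223 (Ago2+/+ tunicamycin), 0.201 (Ago2+/+ thapsigargin), 0.158 (Ago2-/- DMSO), 0.211 (Ago2-/- tunicamycin) and 0.235 FPKM (Ago2-/- thapsigargin). Ctss, a protease of antigen-presenting cells at chr3:95526786-95556403, was listed at 0 in 5 groups and at 0.0228 FPKM in Ago2-/- thapsigargin. All 3 were near or under 1 FPKM in most groups, and their ratios rest on very low values.

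Among proteases outside the cathepsins, Lgmn (chr12:102394084-102439813) encodes legumain, an asparaginyl endopeptidase that processes cathepsins. It stood at 35.4, 14.1 and 30.7 FPKM in Ago2+/+ cells under DMSO, tunicamycin and thapsigargin, and at 14.3, 33.5 and 39.8 FPKM in Ago2-/- cells. Ago2+/+ tunicamycin and Ago2-/- DMSO were low and the other 4 groups lay at 30.7 FPKM or above, a 2.82-fold range.

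Tpp1 (chr7:105744811-105752235), the tripeptidyl peptidase lost in a form of neuronal ceroid lipofuscinosis, followed another order. Its levels were 40.9, 28.0 and 17.7 FPKM in Ago2+/+ cells under DMSO, tunicamycin and thapsigargin, and 26.9, 21.5 and 41.6 FPKM in Ago2-/- cells. Ago2+/+ DMSO and Ago2-/- thapsigargin were highest, 2.34-fold above the lowest group.

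Of the enzymes that act on glycans, Neu1 (chr17:34931253-34935953), the lysosomal sialidase, and Manba (chr3:135485611-135571404), beta-mannosidase, were past 2-fold. Neu1 stood at 13.9, 6.29 and 8.45 FPKM in Ago2+/+ cells under DMSO, tunicamycin and thapsigargin, and at 5.18, 9.48 and 11.9 FPKM in Ago2-/- cells, a 2.66-fold range. Manba stood at 1.44, 2.03 and 3.02 FPKM in the same Ago2+/+ groups and at 1.77, 4.43 and 1.14 FPKM in the Ago2-/- groups, a 3.66-fold range. Neu1 was highest in Ago2+/+ DMSO and Ago2-/- thapsigargin, the 2 groups in which Manba was lowest. The other 6 glycan hydrolases kept within 2-fold. Hexa, a hexosaminidase subunit, spanned 12.5 to 24.2 FPKM and Gusb, beta-glucuronidase, spanned 14.8 to 27.0 FPKM, both highest in Ago2+/+ thapsigargin. Gla, alpha-galactosidase, ranged from 3.31 to 5.40, Naglu, which degrades heparan sulfate, from 3.87 to 6.50, and Man2b1, alpha-mannosidase, from 9.83 to 16.9 FPKM. Glb1, beta-galactosidase, ranged from 18.4 to 22.9 FPKM at a locus shared with Tmppe.

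Among the lipid enzymes, Lipa (chr19:34492318-34527474), the acid lipase that hydrolyses cholesteryl esters, varied most. It stood at 8.17, 14.2 and 20.0 FPKM in Ago2+/+ cells under DMSO, tunicamycin and thapsigargin, and at 14.2, 24.7 and 8.12 FPKM in Ago2-/- cells. Ago2+/+ DMSO and Ago2-/- thapsigargin were low, and the highest group was 3.01-fold above the lowest. Psap (chr10:60277627-60302597) encodes prosaposin, the precursor of activators of sphingolipid hydrolases. Psap stood at 145, 117 and 233 FPKM in Ago2+/+ cells under DMSO, tunicamycin and thapsigargin, and at 114, 256 and 139 FPKM in Ago2-/- cells, a 2.26-fold range in which Ago2+/+ thapsigargin and Ago2-/- tunicamycin stood apart from the other 4. Asah1, acid ceramidase, ranged from 51.7 to 103 FPKM. Smpd1, acid sphingomyelinase, ranged from 14.2 to 20.6 FPKM, and Ppt1, a palmitoyl-protein thioesterase, from 17.7 to 27.6 FPKM. Grn, the precursor of granulins, ranged from 34.8 to 55.9 FPKM. Exons of Hexa, Ppt1, Grn and Npc1 also overlap other annotated genes, so the same uncertainty applies to them.

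At the lysosomal membrane, Lamp1 (chr8:13159161-13200620), a heavily glycosylated structural protein, had the highest value of any member. It stood at 401, 176 and 196 FPKM in Ago2+/+ cells under DMSO, tunicamycin and thapsigargin, and at 177, 199 and 296 FPKM in Ago2-/- cells. Ago2+/+ DMSO and Ago2-/- thapsigargin stood above the other 4 groups, which lay between 176 and 199 FPKM, and the full range was 2.28-fold. Exons of Lamp1 overlap Grtp1 on the other strand. Its relative Lamp2 kept between 67.6 and 86.1 FPKM. The tetraspanin Cd63 (chr10:128900989-128912822) stood at 281, 237 and 319 FPKM in Ago2+/+ cells under DMSO, tunicamycin and thapsigargin, and at 250, 308 and 301 FPKM in Ago2-/- cells. Cd63 thus spanned 1.35-fold.

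Scarb2 (chr5:92441314-92506833) encodes LIMP-2, the membrane receptor that carries glucocerebrosidase to the lysosome. It stood at 6.13, 10 and 13.0 FPKM in Ago2+/+ cells under DMSO, tunicamycin and thapsigargin, and at 9.94, 15.2 and 4.50 FPKM in Ago2-/- cells. Scarb2 and Lipa shared their 2 lowest groups and their 2 highest groups, and the range of Scarb2 was 3.33-fold. The cholesterol transporters Npc1 and Npc2 ranged from 7.53 to 11 and from 35.3 to 52.1 FPKM, and the calcium channel Mcoln1 from 19.8 to 22.8 FPKM, the narrowest range of the members at 1.15-fold. Atp6v0d1, a subunit of the proton pump that acidifies the lumen, ranged from 32.9 to 61.8 FPKM. Tfeb ranged from 4.11 to 6.40 FPKM.

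Over the 6 groups, 13 of the 33 members that passed the filter spanned at least 2-fold between the highest and the lowest group, beside 38.0% of all loci. Among all 36 members 15 did. The 13 comprised 5 of 8 cathepsins and 8 of 25 other members. The median range was 1.82-fold for the 33 members and 1.74-fold for all loci, so the members' count and median lay near those of the background. Just inside the cutoff was Ctsa at 2.08-fold, and just outside it were Asah1 at 1.98-fold and Hexa at 1.93-fold.

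Members were also sorted by which 2 groups held their highest levels. Ago2+/+ thapsigargin and Ago2-/- tunicamycin were the highest 2 for 12 of the 33 members, beside 26.0% of all loci. These were Ctsc, Ctsf, Ctsh, Hexa, Gusb, Manba, Lipa, Psap, Cd63, Scarb2, Npc1 and Atp6v0d1. Ago2+/+ DMSO and Ago2-/- thapsigargin were the highest 2 for 7 members, beside 17.7% of loci, namely Lgmn, Tpp1, Naglu, Neu1, Man2b1, Lamp1 and Npc2. Ago2+/+ tunicamycin and Ago2-/- DMSO were the highest 2 for 5 members, beside 26.6% of loci, namely Ctsl, Ctsz, Ctsa, Asah1 and Ppt1. The other 9 had another pair on top, beside 29.7% of loci. Proteases, glycan hydrolases and membrane proteins were each spread over more than 1 of these patterns.

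**Figure D2:**
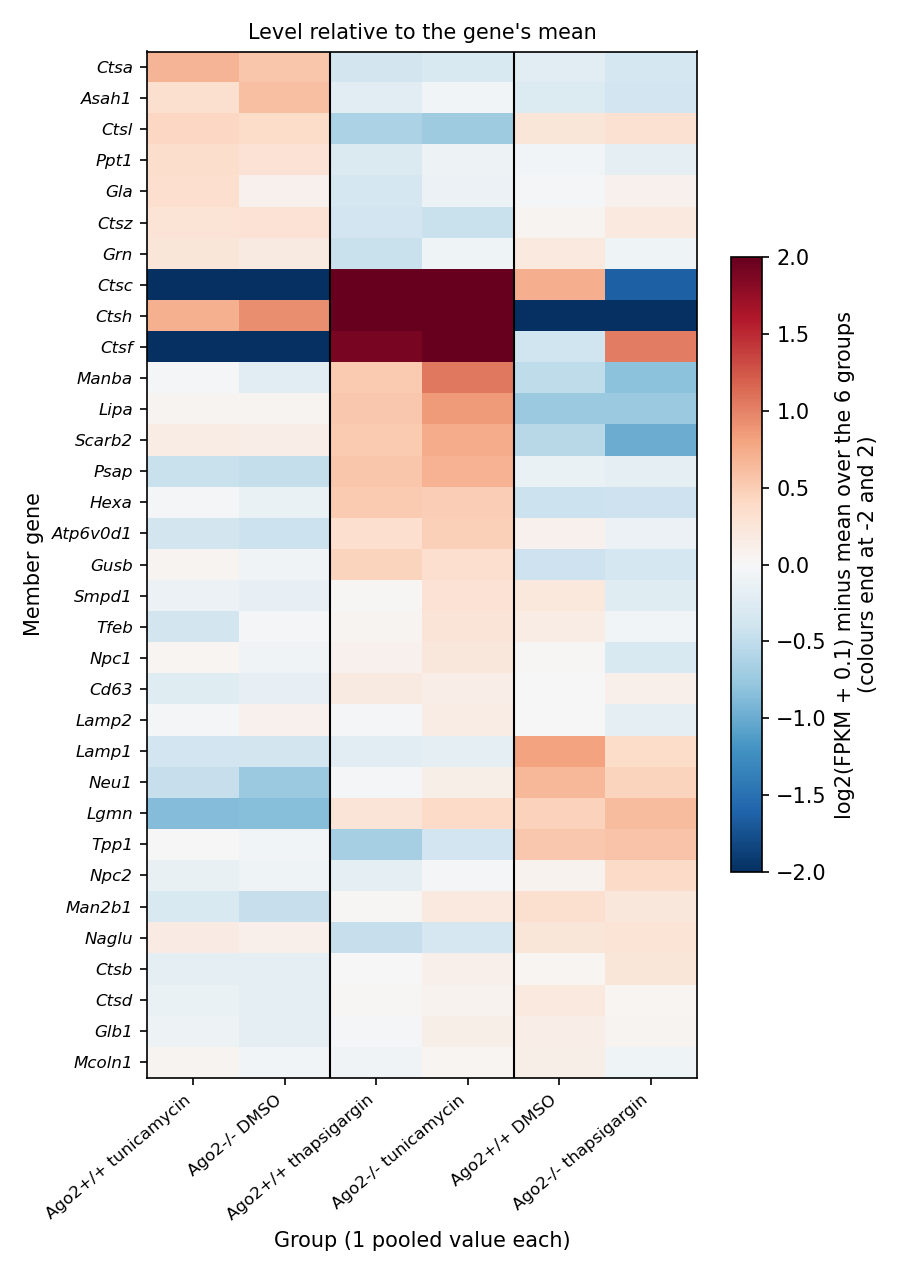
log2(FPKM + 0.1) minus the gene's mean over the 6 groups for the 33 members that passed the filter (rows), with groups in columns arranged as the 3 close pairs. Rows are sorted by the close pair holding the highest value and then by the size of that value, so blocks by pair come partly from the sorting. Colours within a close pair resemble each other for nearly every gene, with Ctsc and Ctsf in Ago2+/+ DMSO and Ago2-/- thapsigargin as the exceptions past 2-fold.

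Genes of other cell programmes moved with the same groups. The 5 contractile genes summed to 2767 FPKM in Ago2+/+ thapsigargin and 2077 FPKM in Ago2-/- tunicamycin, and to 2.40 to 6.59 FPKM in the other 4 groups. The 8 interferon-stimulated genes summed to 70.8 FPKM in Ago2+/+ DMSO and 42.6 FPKM in Ago2-/- thapsigargin, and to 5.44 to 19.1 FPKM elsewhere. Among fibroblast markers, the collagen gene Col1a1 was at 521 and 651 FPKM in Ago2+/+ thapsigargin and Ago2-/- tunicamycin, at 112 and 87.1 FPKM in Ago2+/+ DMSO and Ago2-/- thapsigargin, and at 6.77 and 5.97 FPKM in Ago2+/+ tunicamycin and Ago2-/- DMSO. The receptor gene Pdgfrb ranged from 0.540 to 17.9 FPKM and Fn1, fibronectin, from 46.4 to 600 FPKM, both lowest in Ago2+/+ DMSO. The part of these genes in the lysosomal differences was not tested.

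Tunicamycin in Ago2+/+ cells was compared with DMSO in the same genotype. Of the 33 members, 1 was at least 2-fold higher under tunicamycin, beside 9.61% of all loci, and 5 were at least 2-fold lower, beside 8.29%. The higher one was Ctsh, which was listed at 0 under DMSO. The lower ones were Ctsc, Ctsf, Lgmn, Neu1 and Lamp1, of which Lgmn was lower by a log2 ratio of -1.33, Lamp1 by -1.19 and Neu1 by -1.14. The median log2 ratio was -0.24 over the 11 cathepsins and -0.07 over the 25 other members. Over all loci that passed the filter it was 0.006. Unless a mean of at least 5 FPKM is named, cathepsin medians here and below include Ctsk, Ctso and Ctss, which fell below that filter. Such medians rest partly on very low values, and no shift of cathepsins against all loci is read from them. With a mean of at least 5 FPKM the cathepsin median turned to 0.18. Rescaling FPKM to the same sum in each group left the members at 1 higher and 5 lower, while among all loci the share of calls that were higher went from 53.7% to 42.8%.

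Thapsigargin in Ago2+/+ cells gave 6 members at least 2-fold higher than under DMSO, beside 9.27% of all loci, and 2 lower, beside 7.54%. Ctsc, Ctsf, Ctsh, Manba, Lipa and Scarb2 were higher, with log2 ratios of 1.28 for Lipa, 1.08 for Scarb2 and 1.02 for Manba. Tpp1 and Lamp1 were lower, with log2 ratios of -1.20 and -1.03. After rescaling FPKM to the same sum in each group, 4 members were higher and 2 lower, with Scarb2 at 0.96 and Manba at 0.92. Among all loci the share of calls that were higher then went from 55.1% to 48.5%. The medians were -0.17 for cathepsins and -0.15 for the other members. Beside 6 genes past the cutoff upward, the median member therefore lay slightly lower than under DMSO.

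Tunicamycin in Ago2-/- cells gave 6 members at least 2-fold higher than DMSO, beside 11.6% of all loci, and 1 lower, beside 10.3%. The higher genes were Ctsc, Ctsf, Ctsh, Lgmn, Manba and Psap, with log2 ratios of 1.28 for Manba, 1.22 for Lgmn and 1.17 for Psap. Ctsl was the lower gene, at -1.07. The medians were 0.27 for cathepsins, including those below the filter, and 0.31 for the other members. That of all loci that passed the filter was 0.000. The cathepsin median turned to -0.74 with a mean of at least 5 FPKM. When FPKM were rescaled to the same sum in each group, these counts became 8 higher and 0 lower, and among all loci the share of calls that were higher went from 53.0% to 64.3%.

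Thapsigargin in Ago2-/- cells gave 4 members at least 2-fold higher than DMSO, beside 8.21% of all loci, and 2 lower, beside 9.81%. Ctsc, Ctsf, Lgmn and Neu1 were higher, with log2 ratios of 1.47 for Lgmn and 1.19 for Neu1. Ctsh, listed at 0 under thapsigargin, and Scarb2, at -1.13, were lower. The medians were 0.30 for cathepsins and -0.01 for the other members, and that of cathepsins was -0.06 with a mean of at least 5 FPKM.

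**Figure D3:**
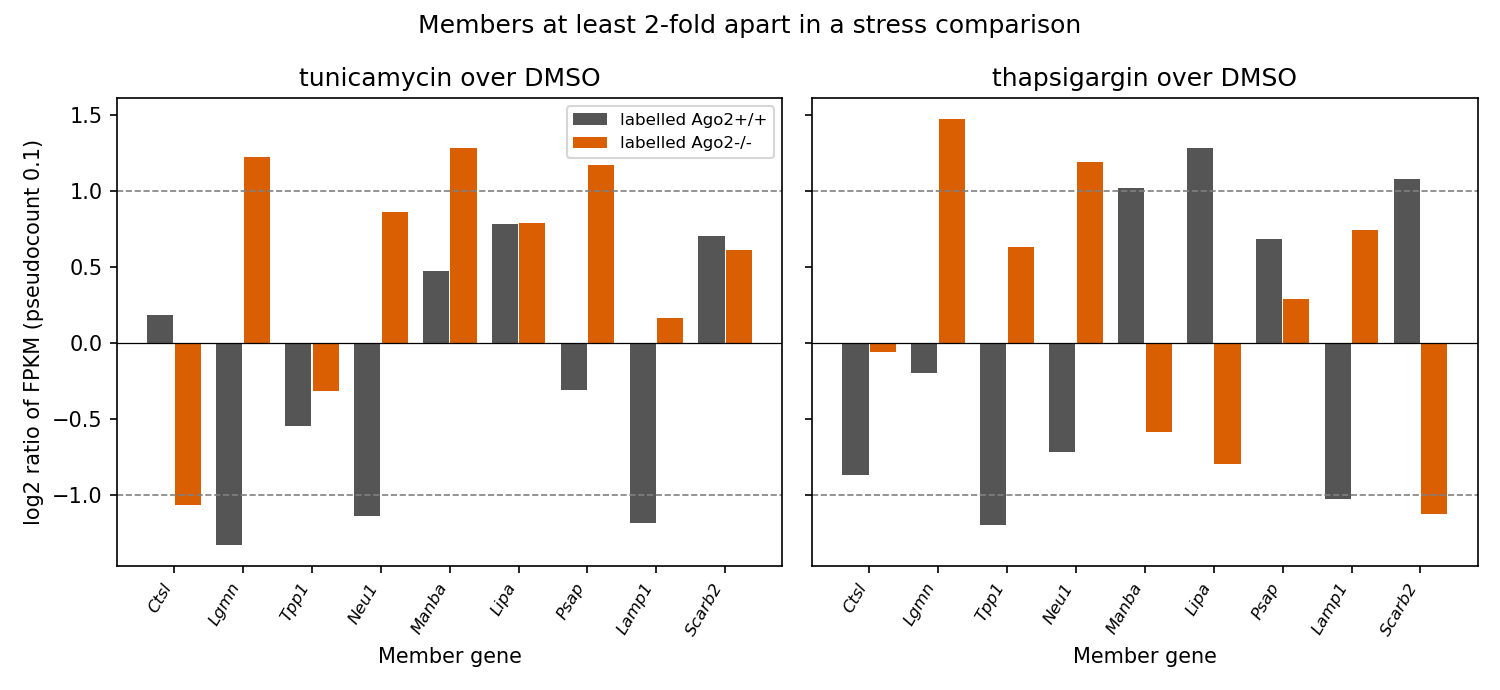
log2 ratios of FPKM (pseudocount 0.1) over DMSO for the 9 members past 2-fold in a stress comparison and above 0 in all 6 groups, with tunicamycin on the left, thapsigargin on the right and 1 bar for each labelled genotype; dashed lines mark 2-fold. Lgmn under tunicamycin and Scarb2 under thapsigargin pass 2-fold in opposite directions in the groups labelled Ago2+/+ and Ago2-/-.

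Set side by side, the responses to the same drug differed in sign between the labelled genotypes for several members. Under tunicamycin, Lgmn was at a log2 ratio of -1.33 in Ago2+/+ and 1.22 in Ago2-/- cells, and Neu1 at -1.14 and 0.86. Ctsc and Ctsf also passed 2-fold in opposite directions under tunicamycin, and Ctsh under thapsigargin, each with a group listed at 0. Under thapsigargin, Scarb2 was at 1.08 and -1.13, and Lipa at 1.28 and -0.80. Manba was higher in both genotypes under tunicamycin, at 0.47 and 1.28. Ago2+/+ tunicamycin and Ago2-/- DMSO are a close pair, as are Ago2+/+ DMSO and Ago2-/- thapsigargin. A level shared by such a pair enters the ratios of the labelled genotypes on opposite sides. These changes of sign therefore cannot be told apart from a difference between the close pairs. With pooled values these differences could not be tested, and the share of all loci with such changes of sign was not taken.

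Genotypes were then compared within each treatment, as Ago2-/- over Ago2+/+. These comparisons share their groups with the stress comparisons and are not independent of them. Under DMSO, 1 of the 33 members was at least 2-fold higher in Ago2-/- cells, beside 9.66% of all loci, and 5 were lower, beside 8.37%. The higher one was Ctsh and the lower ones were Ctsc, Ctsf, Lgmn, Neu1 and Lamp1, with log2 ratios of -1.41 for Neu1, -1.30 for Lgmn and -1.18 for Lamp1. The medians were -0.23 for cathepsins and -0.16 for the other members, and that of cathepsins was 0.12 with a mean of at least 5 FPKM.

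Under tunicamycin, 6 members were at least 2-fold higher in Ago2-/- cells, beside 11.6% of all loci, and 1 was lower, beside 9.88%. Ctsc, Ctsf, Ctsh, Lgmn, Manba and Psap were higher, with log2 ratios of 1.25 for Lgmn, 1.13 for Psap and 1.09 for Manba, and Ctsl was lower at -1.12. After rescaling to the same sum, 7 were higher and 0 lower, and the share of higher calls among all loci went from 53.9% to 65.3%. The medians were 0.21 for cathepsins and 0.29 for the other members, and that of cathepsins was -0.71 with a mean of at least 5 FPKM.

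Under thapsigargin, 1 member was at least 2-fold higher in Ago2-/- cells, beside 7.42% of all loci, and 5 were lower, beside 9.97%. Tpp1 was higher at a log2 ratio of 1.23. Ctsc, Ctsh, Manba, Lipa and Scarb2 were lower, with -1.52 for Scarb2, -1.33 for Manba and -1.29 for Lipa. The medians were 0.15 for cathepsins and -0.08 for the other members.

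The 3 close pairs gave far smaller differences in the members. Between Ago2+/+ tunicamycin and Ago2-/- DMSO, 0 of the 33 members were past 2-fold either way, beside 1.44% of all loci. Between Ago2+/+ thapsigargin and Ago2-/- tunicamycin the count was again 0, beside 1.58%, of which 47.9% were higher in the former group and 37.8% after rescaling to the same sum. Between Ago2+/+ DMSO and Ago2-/- thapsigargin it was 2, beside 3.58%, with Ctsc at 1.41 against 0.196 FPKM and Ctsf at 0.33 against 1.05 FPKM. In the other 12 pairs of groups 5 to 8 members were past 2-fold, beside 16.8% to 22% of all loci. The median absolute log2 ratio of the 33 members was 0.07, 0.14 and 0.15 in the close pairs and 0.31 to 0.49 in the 7 comparisons by treatment or genotype. Over all loci it was 0.09, 0.12 and 0.17 in the close pairs and 0.36 to 0.47 in the 7 comparisons, so the members lay near the background.

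**Figure D4:**
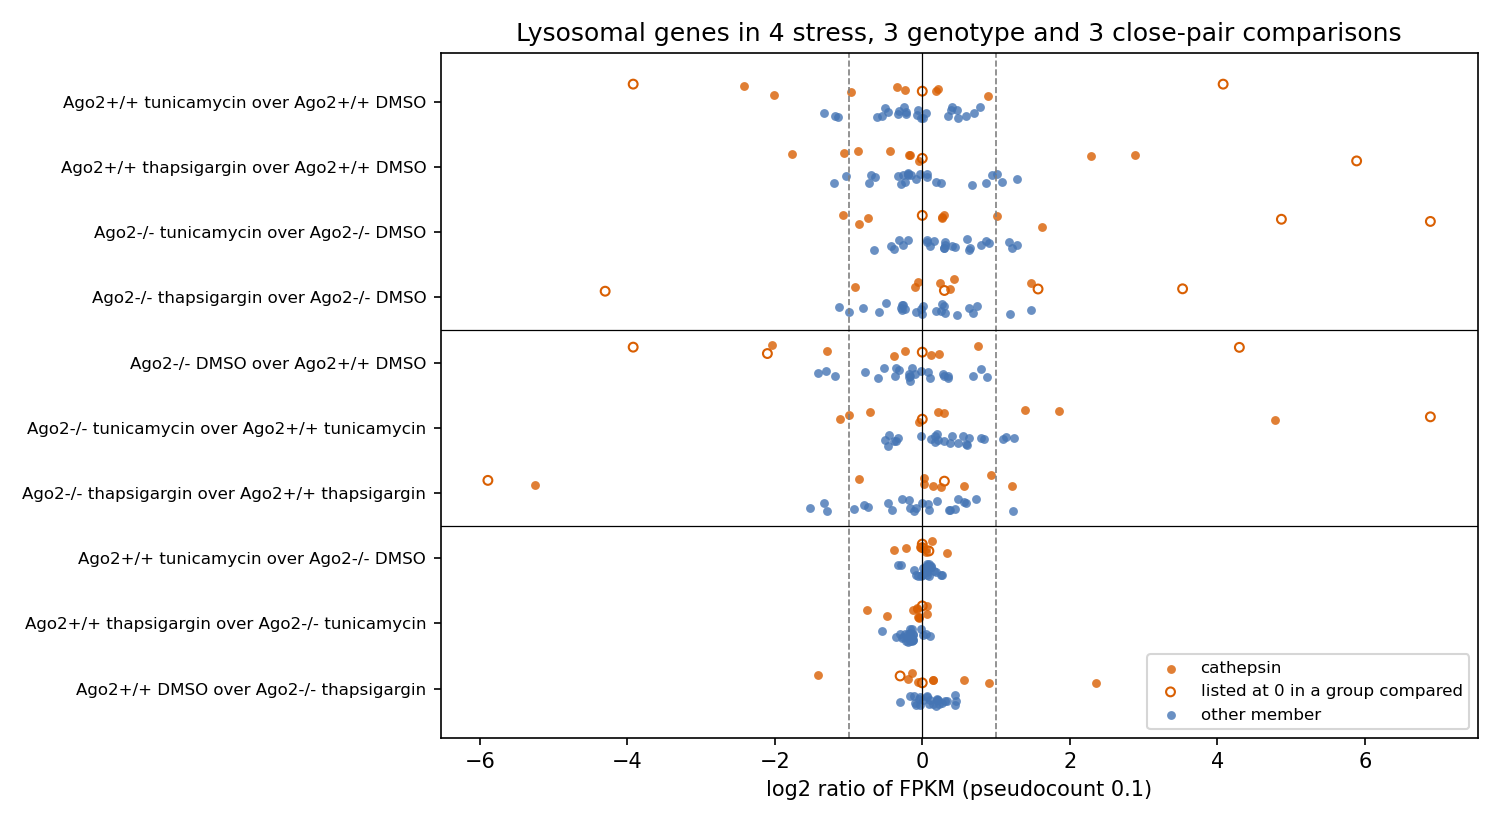
log2 ratios of FPKM (pseudocount 0.1) of the 11 cathepsins (orange) and 25 other members (blue) in the 4 stress, 3 genotype and 3 close-pair comparisons, with dashed lines at 2-fold and open symbols where a gene is listed at 0 in a group compared, so that its position depends on the pseudocount. Other members lie between -1.52 and 1.47 in the upper 7 rows and between -0.54 and 0.46 in the close pairs.

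Genes of the same organelle outside the members were examined in 6 lists of 101 genes, of which 100 were in the table and 89 passed the filter. Of these 89, 22 (24.7%) spanned at least 2-fold over the 6 groups, beside 38.0% of all loci. Under tunicamycin 1 was higher and 7 were lower than DMSO in Ago2+/+ cells, and 10 were higher and 0 lower in Ago2-/- cells. Under thapsigargin 3 were higher and 1 lower in Ago2+/+ cells, and 9 were higher and 1 lower in Ago2-/- cells. The background shares are those given above for the same comparisons.

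In the list of other hydrolases 12 of 27 were past 2-fold over the groups, which is near the 38.0% of all loci. Its members with the widest ranges were Idua, which degrades glycosaminoglycans, from 0.546 FPKM in Ago2-/- DMSO to 2.85 FPKM in Ago2-/- tunicamycin, and Naaa, an amidase of N-acylethanolamines, from 6.05 FPKM in Ago2+/+ tunicamycin to 23.9 FPKM in Ago2-/- thapsigargin. Of 17 other membrane proteins 5 were past 2-fold, among them Sidt2 (9.16 to 29.3 FPKM). Of 15 proton pump subunits 1 was, Atp6v1e1, at 30.7 to 62.4 FPKM, followed by Atp6v1h at 28.3 to 53.7 FPKM. Of 12 genes for mannose 6-phosphate tagging and sorting 1 was, Sort1, a sorting receptor, at 1.20 to 5.73 FPKM, followed by Gga3 at 10.7 to 20.0 FPKM.

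Of 15 genes of the Tfeb family and its regulators 3 were past 2-fold. Rragb, a GTPase that recruits mTORC1 to lysosomes, stood at 3.01 to 10.4 FPKM in 4 groups and was listed at 0 in the other two, Ago2-/- DMSO and Ago2+/+ tunicamycin. Mitf, a relative of Tfeb, was lowest in those same groups, at 0.554 and 0.494 FPKM, and at 2.23 to 3.34 FPKM elsewhere. None of the 3 cathepsin inhibitors that passed the filter was past 2-fold, with Cstb at 132 to 232 FPKM and Cst3 at 105 to 176 FPKM.

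Promoters were then searched for CACGTG, a palindrome that reads the same on both strands, in RefSeq windows from 250 bases before to 50 bases after each start site (GRCm38.p6). Of the 36 members 32 had a window, and Asah1, Ctsb, Ctsh and Npc1 had none. The motif was found for 11 of the 32 (34.4%), where 8.09% of 27025 genes held it. The 11 were Atp6v0d1, Ctsa, Ctsd, Ctsf, Ctsl, Gla, Glb1, Lamp1, Lgmn, Mcoln1 and Naglu. A longer palindrome of 10 bases that contains it, the full form of the element bound by Tfeb, was found in 0 members and in 0.370% of genes. Of the 11 members with CACGTG, 5 spanned at least 2-fold over the 6 groups, and of the 18 that had a window without it and passed the filter, 7 did, both near the 38.0% of all loci. Windows around the motif are shown for these 5, with the motif in capitals, since their levels were given above. Ctsa held a second match, close to the one shown. Those of Ctsa, Ctsf, Ctsl and Lgmn span chr2:164833749-164833778 (plus strand), chr19:4855074-4855103 (plus), chr13:64370739-64370768 (minus) and chr12:102439124-102439153 (minus).
Ctsa: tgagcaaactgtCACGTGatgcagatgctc
Ctsf: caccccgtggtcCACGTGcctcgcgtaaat
Ctsl: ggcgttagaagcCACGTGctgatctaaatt
Lgmn: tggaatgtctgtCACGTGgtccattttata

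Lamp1, the member with the highest single value, held the motif 4 times in the 250 bases before its start site, chr8:13158911-13159160 (plus strand), shown whole with the 4 matches in capitals. The 4 matches sit side by side next to the start site.
Lamp1: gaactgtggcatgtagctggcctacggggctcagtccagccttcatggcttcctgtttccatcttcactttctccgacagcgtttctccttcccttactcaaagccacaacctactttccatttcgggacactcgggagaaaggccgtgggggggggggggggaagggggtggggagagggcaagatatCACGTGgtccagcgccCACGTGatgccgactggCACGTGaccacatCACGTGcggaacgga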

How the data were processed

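Total RNA was sequenced from 18 MEF libraries, 3 in each of 6 groups. The deposited FPKM were made by the authors with HISAT2 2.1.0, StringTie 1.3.4d and Cuffdiff 2.2.1 on GRCm38, after FastQC 0.11.7 (versions from the submitters' processing notes), with Ensembl release 91 as annotation per the study's methods. How libraries were scaled and whether strand was used is not given in the sources used. Cuffdiff pooled the libraries of a group, and its table lists each of 15 pairs of groups for 51499 loci (772485 lines). Its columns of fold changes, test statistics, p-values, q-values and significance calls were not used. Depth is unknown: at most 28.5% of low values lay near a whole multiple of the best read step, where 20% would without any step, so read counts could not be recovered.

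With 1 value per group there was no replicate error and no test. Had tests been possible, p-values would have measured only the spread between libraries. Group names in the table were matched to titles, and for 4 libraries other labels contradict the genotype. Ratios were log2((FPKM + 0.1)/(FPKM + 0.1)), and the 11929 loci whose mean over the 6 groups reached 1 FPKM formed the background. Coordinates are those of the loci, and 69.7% of 47399 loci with 1 gene name started where GENCODE M21 places the gene. Members, gene lists and comparisons were chosen with earlier results of these data known. Each member was named, with all group levels for those at least 2-fold apart, the 3 most abundant and the least abundant, and by range otherwise. From each pathway list the 2 loci of widest range were named, except 1 that is not reported here. Alternatives were pseudocounts of 1 FPKM or none, no filter or a mean of at least 5 FPKM, median centring, rescaling to the same sum, leaving out loci with several names, and a cutoff of 1.5-fold. Python 3.11.15, numpy 2.4.6, pandas 2.3.3, scipy 1.17.1 and matplotlib 3.10.9 were used.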

Additional observations from a re-analysis of the deposited data

Results flagged for a closer look

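Among members above 0 in the groups compared, the response of 2 to the same drug passed 2-fold in opposite directions in the groups labelled Ago2+/+ and Ago2-/-. For Lgmn under tunicamycin the log2 ratio over DMSO in Ago2-/- cells exceeded that in Ago2+/+ cells by 2.55, with 14.3 and 33.5 FPKM under DMSO and tunicamycin in the former and 35.4 and 14.1 FPKM in the latter. For Scarb2 under thapsigargin the same difference was -2.20, with 9.94 and 4.50 FPKM in Ago2-/- cells and 6.13 and 13.0 FPKM in Ago2+/+ cells. After rescaling to the same sum, Scarb2 was at 0.96 in Ago2+/+ and -1.01 in Ago2-/- cells, so that the former fell under 2-fold. Neu1 under tunicamycin then passed 2-fold in both, at -1.31 and 1.03. Ctsc and Ctsf under tunicamycin and Ctsh under thapsigargin also passed 2-fold in opposite directions, each with a group listed at 0. For Lgmn the 2 low groups, Ago2+/+ tunicamycin and Ago2-/- DMSO, are a close pair. For Scarb2 the 2 low groups, Ago2+/+ DMSO and Ago2-/- thapsigargin, are another. A level shared by such a pair enters the ratios of the 2 labelled genotypes on opposite sides. A drug response that depends on genotype therefore cannot be told apart from a difference between the close pairs. None of these differences was tested, because each group has 1 pooled value. The share of all loci past 2-fold in opposite directions was not taken. The count of 2 therefore has no background beside it and says nothing about whether the members differ from other genes.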

How the results depend on the processing

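The values have no replicate error, so a count was taken as stable when it stayed within 1.5 times, and a median when it moved by less than 0.1 (log2). By this measure 59 of 70 counts at the 2-fold cutoff and 116 of 140 medians were stable. Some of these checks could not fail. Medians were already taken over all members, so removing the filter left them unchanged. Median centring shifted a median by no more than 0.03, under the limit of 0.1. Leaving out loci with several names dropped only Ctsd and Glb1, which never reached 2-fold, so counts could not move. The tallies therefore overstate stability. The cutoff of 1.5-fold raised the members over the 6 groups to 24. It gave 11 and 15 members for tunicamycin and thapsigargin in Ago2+/+ cells, 16 and 13 in Ago2-/- cells, and 12, 14 and 13 between genotypes under DMSO, tunicamycin and thapsigargin. A mean of at least 5 FPKM, which drops Ctsc, Ctsf, Ctsh, Gla and Manba, gave 3 and 4 members in Ago2+/+ cells, 3 and 3 in Ago2-/- cells, 3, 3 and 3 between genotypes, and 0 between Ago2+/+ DMSO and Ago2-/- thapsigargin. Without a pseudocount, thapsigargin in Ago2-/- cells and genotype under DMSO each had 3. With a pseudocount of 1 FPKM, Ago2+/+ DMSO against Ago2-/- thapsigargin had 1. The share of all loci was not taken at the 1.5-fold cutoff, the 5 FPKM filter or these pseudocount settings. These counts therefore have no background beside them and say nothing about whether the members moved more than other genes.

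Cathepsin medians with the mean of 5 FPKM were 0.18 (Ago2+/+ tunicamycin over DMSO), -0.74 and -0.06 (Ago2-/- tunicamycin and thapsigargin over DMSO), and 0.12 and -0.71 (genotype under DMSO and tunicamycin). That of the other members for Ago2+/+ tunicamycin was then -0.22. Rescaling shifted the median of all loci by -0.17 (Ago2+/+ tunicamycin), -0.11 (Ago2+/+ thapsigargin), 0.17 (Ago2-/- tunicamycin) and 0.11 (Ago2-/- thapsigargin). Cathepsin and other medians became -0.41 and -0.25, -0.28 and -0.26, and 0.44 and 0.48 in the first 3 of these, and 0.11 for the others in the fourth. Between genotypes they became -0.39 and -0.32 under DMSO and 0.41 and 0.48 under tunicamycin, and in Ago2+/+ thapsigargin over Ago2-/- tunicamycin -0.19 and -0.29. With a pseudocount of 1 FPKM the cathepsin median was 0.09 for Ago2-/- thapsigargin over DMSO and 0.03 for genotype under thapsigargin, and without one it was 0.15 in Ago2+/+ DMSO over Ago2-/- thapsigargin. Leaving out loci with several names gave -0.12 for Ago2+/+ tunicamycin and -0.11 for genotype under DMSO. Of the 140 alternative medians, 7 had the other sign.

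No paired analysis was possible because the table holds 1 pooled value per group. The table does not allow a library to be left out in turn.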
